A study of Mus musculus with 18 samples.

Results

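The noncanonical NF-kB pathway is followed here through 10 genes, chosen by gene symbol from the 36757 genes of the count table: the receptors Ltbr and Cd40, the adaptors Traf2 and Traf3, the ubiquitin ligases Birc2 and Birc3, the kinases Map3k14 and Chuk, and the subunits Nfkb2 and Relb. All 10 had counts in each of the 18 libraries and passed the filter on low counts in each model. RNA was sequenced from colorectal tissue of mice with chronic colitis, from colorectal tissue of mice with colitis-associated colorectal cancer (CAC), and from organoids grown in matrigel out of tumor-bearing fragments of the CAC model, with 3 libraries of each genotype in each model. The question was how loss of RNF138, a ubiquitin ligase, changes transcripts in inflammation, in tumors and in tumor cultures. In the colitis model, C57BL/6 mice of 6 to 8 weeks, wild type (RNF138 fl/fl) or RNF138-/-, drank 2% dextran sulfate sodium (DSS) for 7 days and water for 14 days, in repeated cycles. In the CAC model, mice of the same strain, ages and genotypes first received azoxymethane (AOM), a carcinogen, at 10 mg/kg, and began DSS cycles 4 days later. The organoids of both genotypes came from such AOM- and DSS-treated animals, so no group was untreated. Male and female mice were used, and by the study's methods those of both models were killed 4 weeks after the last DSS cycle. The labels do not say whether the 3 libraries of a group came from separate animals or cultures, or how the RNF138-/- allele was made, and p-values measure the spread between these libraries, which may be technical.

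In the noncanonical pathway, receptors of the TNF receptor family such as LTBR and CD40 draw the TRAF2, TRAF3, BIRC2 and BIRC3 complex to the membrane. Without a signal this complex marks the kinase NIK, encoded by Map3k14, for degradation; with a signal NIK accumulates, activates IKK-alpha (Chuk), and the precursor p100 (Nfkb2) is cut to p52, which enters the nucleus with RELB. In the gut the pathway is known for the formation of lymphoid tissue, for B cell survival and for epithelial responses to injury, and since NIK and p100 are controlled as proteins, a transcript level does not measure pathway activity.

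The promoters of 4 members that rose in the organoids are printed to show the regulatory sequence beside the transcript values. RefSeq promoter windows of GRCm38.p6, from 250 bases before to 50 bases after a start site, were given for 8 of the 10 genes, and Relb and Cd40 had no entry. The sequences run 5′ to 3′ on the strand of the gene, and capitals mark matches of the kB consensus, the DNA motif bound by NF-kB dimers, searched on both strands. The first Nfkb2 window lies at chr19:46304487-46304786 on the plus strand, the Traf3 window at chr12:111166120-111166419 on the plus strand, the Map3k14 window at chr11:103267352-103267651 on the minus strand and the Birc3 window at chr9:7873121-7873420 on the minus strand.
Nfkb2: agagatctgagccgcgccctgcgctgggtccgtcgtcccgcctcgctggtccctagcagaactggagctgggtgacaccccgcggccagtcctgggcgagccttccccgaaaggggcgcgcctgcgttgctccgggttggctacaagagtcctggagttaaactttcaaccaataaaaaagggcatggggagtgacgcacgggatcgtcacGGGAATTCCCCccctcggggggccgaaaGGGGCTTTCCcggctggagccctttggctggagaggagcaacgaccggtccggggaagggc
Traf3: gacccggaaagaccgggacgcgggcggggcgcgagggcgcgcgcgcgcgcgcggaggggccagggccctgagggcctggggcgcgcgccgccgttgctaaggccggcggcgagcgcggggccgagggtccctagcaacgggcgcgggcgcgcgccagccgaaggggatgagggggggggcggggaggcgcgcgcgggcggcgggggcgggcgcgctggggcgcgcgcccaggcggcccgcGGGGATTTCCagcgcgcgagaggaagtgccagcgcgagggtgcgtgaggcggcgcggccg
Map3k14: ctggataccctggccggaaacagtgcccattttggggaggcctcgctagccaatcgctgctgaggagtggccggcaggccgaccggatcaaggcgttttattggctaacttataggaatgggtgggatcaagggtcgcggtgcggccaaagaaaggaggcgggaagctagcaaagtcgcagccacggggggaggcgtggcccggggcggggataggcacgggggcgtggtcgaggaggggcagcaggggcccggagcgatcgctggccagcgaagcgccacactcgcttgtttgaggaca
Birc3: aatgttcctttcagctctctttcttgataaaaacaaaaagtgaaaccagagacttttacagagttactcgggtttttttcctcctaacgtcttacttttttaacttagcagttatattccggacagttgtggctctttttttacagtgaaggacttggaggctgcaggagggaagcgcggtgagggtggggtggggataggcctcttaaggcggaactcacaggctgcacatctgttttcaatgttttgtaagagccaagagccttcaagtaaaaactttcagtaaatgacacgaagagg

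The Nfkb2 window held 4 matches, some of which overlap, in 2 stretches, the first starting 39 bases before the start site and the last 11 bases before it, and both other Nfkb2 windows in the table, which overlap each other, also held matches (2 and 1), the last being 1 site counted in both. The Traf3 window held 1 match, 10 bases before the start site. The windows of Map3k14, Birc3, Birc2, Chuk, Ltbr and Traf2 held 0 matches of this motif. Of 32851 windows of this length in the table, 4.51% held a match. The windows of Map3k14 and Birc3 are shown beside those of Nfkb2 and Traf3 because all 4 genes rose and these lack a match. A match is a string of letters, and binding was not measured.

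Counts of the 10 genes lay between 21 (Cd40) and 3400 (Nfkb2) per library, and total counts per library between 11514716 and 24390082. Levels are given as CPM, counts scaled to a common library total, with scaling within a model by TMM, a method that aligns the bulk of the genes between libraries, and genotypes were compared by edgeR's quasi-likelihood test with Benjamini-Hochberg adjustment over all genes tested. The targeted gene did not pass the test as lower in any model, and in CAC it went against its label. The level of Rnf138 was 19.7 ± 4.89 CPM (SD, n = 3) in the RNF138 fl/fl libraries and 18.9 ± 0.772 in RNF138-/- colitis libraries, 29.6 ± 3.57 and 48.9 ± 3.58 in CAC, where it was higher (log2 fold change 0.72, edgeR adjusted p = 0.0426), and 43.3 ± 8.97 and 40.4 ± 3.24 in the organoids. The CAC call was lost (adjusted p 0.0564 to 0.164) without any 1 library other than the third RNF138 fl/fl one. A count per gene cannot show a lost exon, and the libraries are therefore called knockout-labelled. Beside the genotype, cell type markers (lists of 8 genes each) differed. In the organoids the summed fibroblast markers were 35290 to 43340 CPM in knockout-labelled and 8296 to 20560 in RNF138 fl/fl libraries, against 1001 to 2006 in both tissues, and epithelial markers were 5199 to 7652 against 9236 to 9953. Organoid myeloid markers were 88.9 to 134 against 22.2 to 30.7, and smooth muscle markers 1727 to 1905 against 308.9 to 1395. In the myeloid sum Lyz2 had a mean of 84.2 CPM in knockout-labelled and 5.33 in RNF138 fl/fl organoids, while Cd68 had 13.1 and 15.6. Of the markers tested, 7 of 8 fibroblast, 3 of 6 myeloid and 3 of 8 smooth muscle genes were past the threshold as higher and 4 of 8 epithelial genes as lower. Endothelial markers (49.2 to 64.4 against 20.8 to 36.5) were mostly Eng, with 3 tested genes positive and 3 negative and a median of -0.06. Of the 6 tested, 2 were past the threshold as higher and 0 as lower. M cell markers were 1588 to 1706 against 2171 to 3496, with 2 of 6 past the threshold in each direction: Pglyrp1 (mean 438 against 1920 CPM) and Gp2 were lower, Tnfaip2 (574 against 185) and Anxa5 higher. T cell markers (5.54 to 6.40 against 8.98 to 11.96) were mostly Lck, only 2 of 8 were tested, and Cd3e was at 0 in all 6 libraries. The 4 Y-linked genes summed to 0 CPM in each RNF138 fl/fl organoid library and to between 208.5 and 242 in the knockout-labelled ones, so sex and genotype cannot be told apart in the organoids. In bulk samples, fewer cells of a type and less RNA per cell cannot be told apart.

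**Figure D1:**
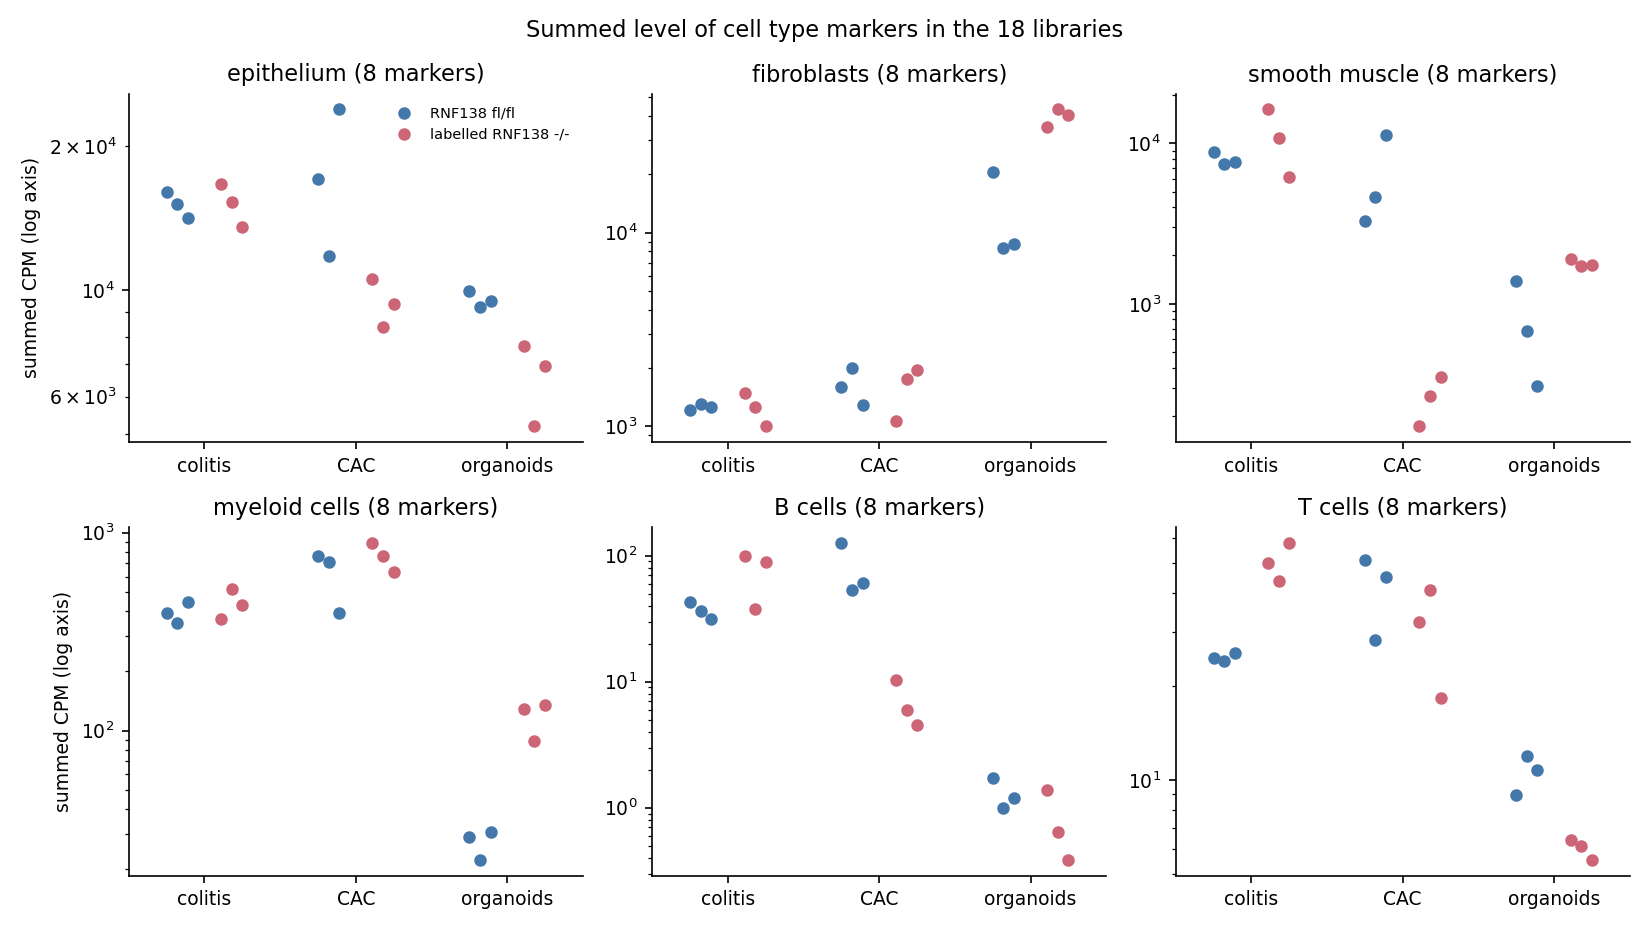
Summed CPM (log axis) of 6 lists of 8 cell type markers in the 18 libraries by model and genotype, 1 point per library. Fibroblast markers of the organoids lay between 8296 and 43340 CPM, above all tissue libraries, and B cell markers of CAC lay between 4.5 and 10.3 CPM in knockout-labelled libraries against 52.9 to 126 in RNF138 fl/fl libraries.

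In the organoids, several genes of the pathway were higher in the knockout-labelled libraries. Of the 10 genes, 5 were past an adjusted p of 0.05, and all of these were higher in knockout-labelled organoids: the NIK gene Map3k14, Birc3, Nfkb2, Traf3 and Birc2. Over all 15294 genes tested, 35.5% were past this threshold, 17.9% higher and 17.7% lower, and 47.4% had an unadjusted p under 0.05. Map3k14 alone also rose at least 2-fold, which 15.0% of all genes did in either direction with the same adjusted p. The log2 fold changes of the 10 genes had a median of 0.36, against -0.04 for all genes. The groups did not overlap for 5 genes that were higher and for 1 that was lower, against 25.8% and 27.8% of all genes.

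Map3k14, whose protein NIK starts the kinase relay, had 5.80, 3.72 and 3.15 CPM in the RNF138 fl/fl organoids and 8.88, 9.42 and 7.98 in the knockout-labelled ones. The knockout-labelled values all lay above the others. The log2 fold change was 1.04 (edgeR adjusted p = 0.0159, SE 0.25, 3 against 3 libraries), or 2.06-fold, from 52 to 115 reads and 124 to 207 reads per library. The gene lies on mm10 chromosome 11, from 103219762 to 103267472 on the minus strand. The other kinase gene, Chuk (IKK-alpha, chromosome 19, 44073335 to 44107480, minus strand), had 59.5, 59.1 and 64.9 CPM in RNF138 fl/fl and 58.3, 55.4 and 53.6 in knockout-labelled organoids. The groups of Chuk touched closely without overlap, with a log2 difference of -0.13 (95% interval -0.32 to 0.06, edgeR adjusted p = 0.307).

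Nfkb2, the gene of p100 and p52, had 105.0, 68.2 and 75.8 CPM in RNF138 fl/fl organoids and 135, 155 and 140.1 in knockout-labelled ones. The log2 fold change was 0.79 (edgeR adjusted p = 0.0095, SE 0.16), and the groups did not overlap. Of the 50-base windows of Nfkb2 (chromosome 19, 46304320 to 46312385, plus strand), 14.9% also occur in another gene, mostly AC114539.1, an antisense transcript that is not in the count table. The strand setting of the counting was not given in the sources used here, so reads of the antisense neighbours, which also include Psd, cannot be told apart from those of Nfkb2. Its partner Relb (chromosome 7, 19606217 to 19629438, minus strand) had 102.8, 75.4 and 82.5 CPM in RNF138 fl/fl and 95.8, 105.1 and 96.7 in knockout-labelled organoids. The Relb groups overlapped through the first RNF138 fl/fl library, and the log2 difference was 0.19 (95% interval -0.07 to 0.45, edgeR adjusted p = 0.279).

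Of the complex that holds NIK down, 3 of 4 genes rose, where 17.9% of all genes did. Traf3 (chromosome 12, 111166370 to 111267153, plus strand), the adaptor that binds NIK, had 69.3, 44.8 and 51.9 CPM in RNF138 fl/fl organoids and 81.1, 91.7 and 89.5 in knockout-labelled ones, a log2 fold change of 0.66 (edgeR adjusted p = 0.0163, SE 0.16). Birc3, also called cIAP2, had 39.0, 22.1 and 38.0 against 55.3, 76.7 and 63.8 CPM, a log2 fold change of 0.98 (edgeR adjusted p = 0.0124, SE 0.22). The second RNF138 fl/fl library was the lowest and the second knockout-labelled library the highest for Birc3. Birc2, or cIAP1, had 37.4, 42.6 and 33.3 against 49.1, 61.2 and 46.1 CPM, a log2 fold change of 0.47 (edgeR adjusted p = 0.0387, SE 0.15). Traf3, Birc3 and Birc2 showed no overlap between the groups. Traf2 (chromosome 2, 25517982 to 25546940, minus strand), the adaptor that joins the ligases to TRAF3, had 23.2, 19.9 and 20.7 against 20.96, 20.7 and 22.1 CPM, with overlapping groups (log2 difference -0.003, 95% interval -0.24 to 0.23, edgeR adjusted p = 0.988). Birc2 (7818227 to 7837064) and Birc3 (7848699 to 7873186) are neighbours on the minus strand of chromosome 9, 11634 bases apart, and share 65 windows of 50 bases. For Birc3, 7.56% of windows occur in another gene, mostly Gm7019.

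Neither receptor gene passed the test in the organoids. Ltbr (chromosome 6, 125306571 to 125313885, minus strand), the lymphotoxin-beta receptor gene, had 125.9, 132.1 and 118.9 CPM in RNF138 fl/fl and 131, 132.7 and 123.9 in knockout-labelled libraries, with overlap and a log2 difference of 0.04 (95% interval -0.15 to 0.23, edgeR adjusted p = 0.772). Cd40 (chromosome 2, 165055627 to 165072948, plus strand), best known from B cells and antigen-presenting cells, had 5.65, 5.16 and 3.27 against 4.95, 5.83 and 6.05 CPM, with overlap and a log2 difference of 0.26 (95% interval -0.23 to 0.75, edgeR adjusted p = 0.447).

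**Figure D2:**
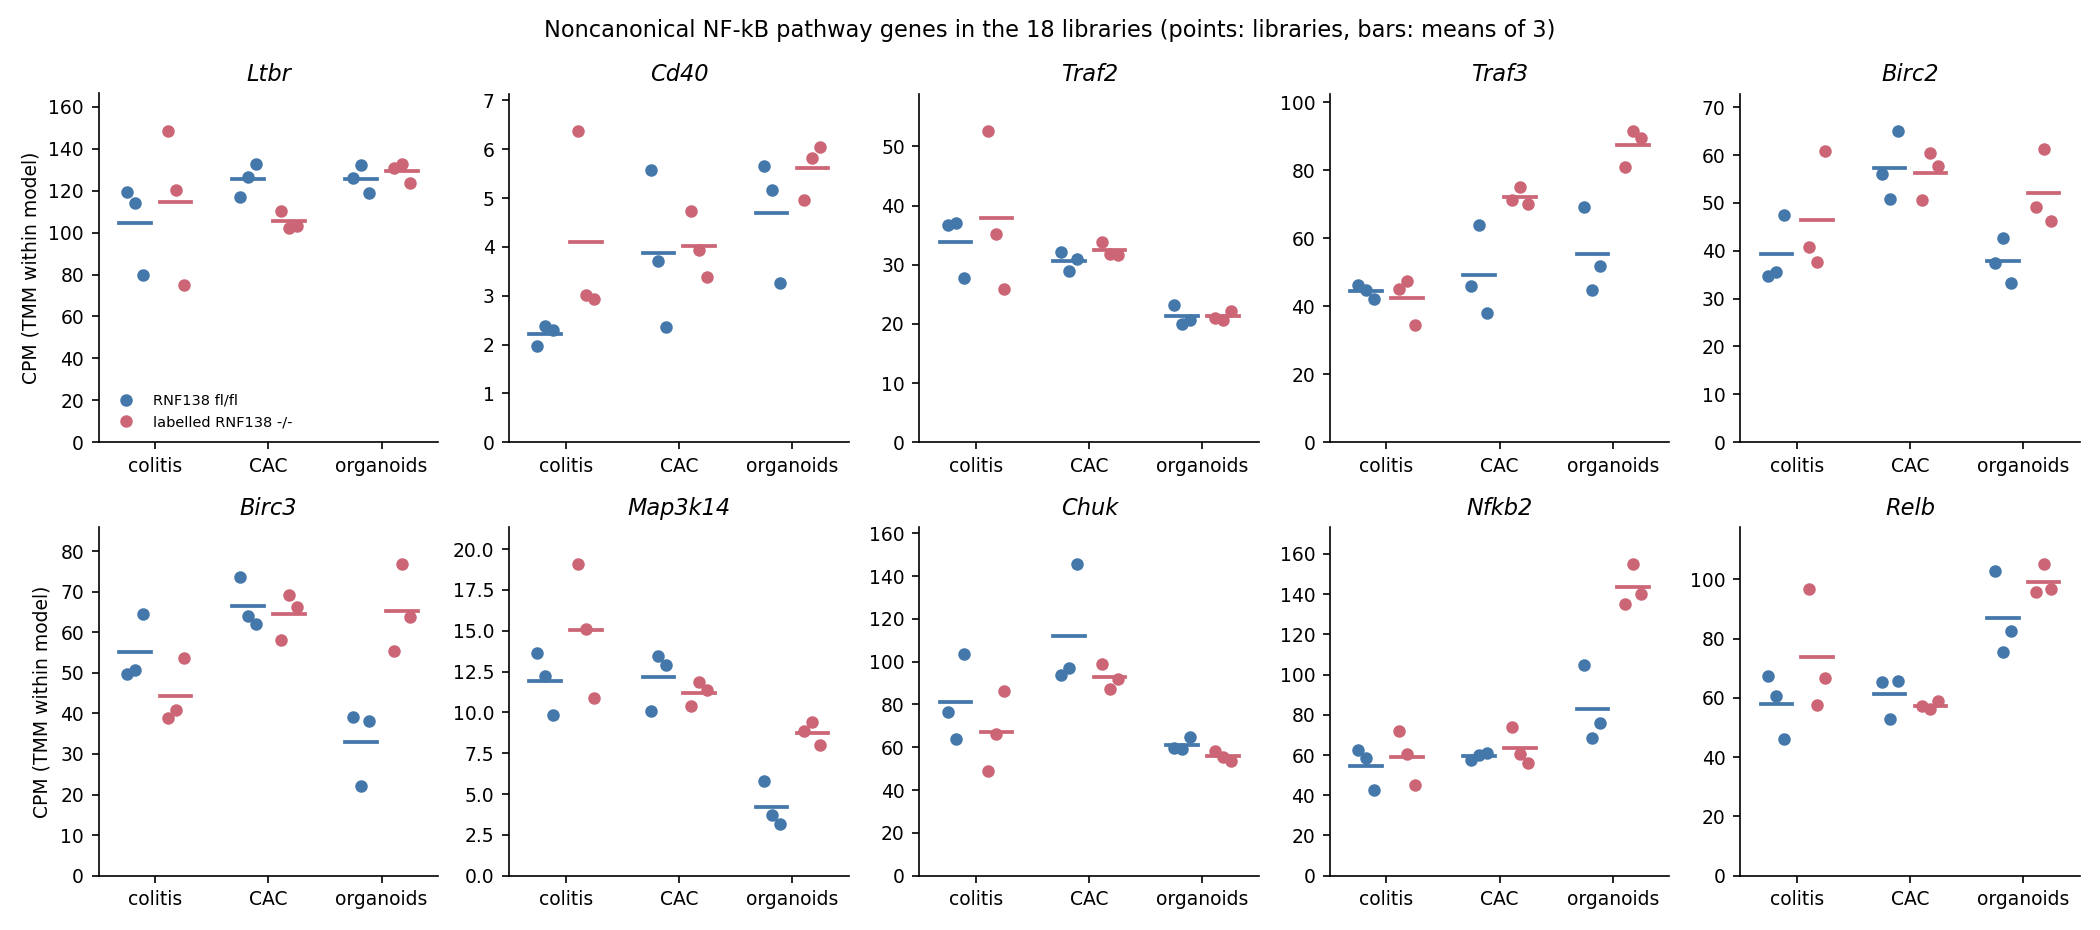
CPM of the 10 genes in each library (points, with the mean of 3 as a bar), by model and genotype, with linear axes from 0. In the organoids, Nfkb2 lay between 68.2 and 105.0 CPM in RNF138 fl/fl libraries and between 135 and 155 in knockout-labelled ones, while the colitis and CAC values of Nfkb2 overlapped.

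The organoid calls depended on single libraries, as did the share of all genes called, which was 17.2%, 18.9% and 21.7% without the second, the third and the first knockout-labelled library and 44% without the first RNF138 fl/fl library. Without the second knockout-labelled library, 1 of the 10 genes was past the threshold (Nfkb2, edgeR adjusted p = 0.0417), and Map3k14 (0.0628), Traf3 (0.0607), Birc3 (0.0517) and Birc2 (0.138) were not. Without the third, 3 were past it, Traf3 (0.0571) and Birc2 (0.0558) no longer. Map3k14 was also lost without the second RNF138 fl/fl library (0.0512), and Birc2 without the third RNF138 fl/fl (0.0896) or the first knockout-labelled library (0.0733). Without the first RNF138 fl/fl library 6 were past it, Relb included (0.0243). Nfkb2 stayed past it without each library in turn, at 0.66 to 1.01 on the log2 scale. Scaling by library totals lowered the median of all genes to -0.24, and by that scaling, which called 41.9% of all genes, 4 members were higher, Birc2 was not past the threshold (0.26, edgeR adjusted p = 0.172) and Chuk was lower (-0.34, edgeR adjusted p = 0.0489). The first RNF138 fl/fl organoid library had the highest fibroblast sum of its group (20560 CPM) and the highest values in that group of 7 of the 10 genes: Map3k14, Nfkb2, Traf3, Birc3, Relb, Traf2 and Cd40. The part of cell content in these differences was not tested.

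In CAC tissue, 0 of the 10 genes passed the edgeR test and DESeq2 also called 0, against 6.38% of 17752 genes by edgeR (1.05% higher, 5.33% lower) and 20.2% of the genes with an adjusted p by DESeq2. At an unadjusted p under 0.05 there was 1 of the 10, against 33.8% of all genes. Traf3 came closest. It had 46.0, 63.9 and 38.1 CPM in RNF138 fl/fl and 71.3, 75.2 and 70.1 in knockout-labelled tissue. The 3 knockout-labelled values lay close together and above all others, with a log2 difference of 0.55 (edgeR adjusted p = 0.117, SE 0.20). In a fit of all 18 libraries the adjusted p of Traf3 in CAC was 0.0354. Ltbr had 116.9, 126.7 and 133 CPM in RNF138 fl/fl and 110.5, 102.4 and 103.2 in knockout-labelled tissue, lower without overlap, at a log2 difference of -0.25 (edgeR adjusted p = 0.182, SE 0.12). The groups failed to overlap for 1 gene that was higher and 1 that was lower, against 21.4% and 22.8% of all genes.

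The other 8 genes overlapped between genotypes in CAC. Map3k14 had 10.1, 13.5 and 12.9 against 10.4, 11.8 and 11.4 CPM, a log2 difference of -0.12 (95% interval -0.50 to 0.26). Nfkb2 had 57.8, 59.8 and 61.0 against 73.8, 60.4 and 55.8 CPM, a difference of 0.09 (-0.19 to 0.37). Birc3 had 73.7, 63.9 and 61.9 against 58.1, 69.2 and 66.2 CPM, a difference of -0.04 (-0.31 to 0.22). These intervals hold 0 and leave out the organoid fold changes of the same genes. This is no test between models, since the organoid values have a spread of their own. That test is given below, and Nfkb2 did not pass it. Differences for Relb, Traf2, Birc2, Cd40 and Chuk were between -0.27 (Chuk) and 0.08 (Traf2), and edgeR adjusted p-values between 0.352 and 0.946. With library totals in place of TMM the median of all genes in CAC moved to 0.27, and the differences of Map3k14, Relb, Ltbr, Birc2, Birc3 and Chuk turned positive, from 0.02 (Ltbr, Chuk) to 0.26 (Birc2). Relative to that median all 6 were still negative. CAC knockout-labelled tissue had summed B cell markers of 4.5 to 10.3 CPM against 52.9 to 126, smooth muscle markers of 172 to 349.5 against 3277 to 11280, and epithelial markers of 8366 to 10560 against 11800 to 23850. Their part in these values was not tested.

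In colitis, 0 of the 10 genes passed the edgeR test and DESeq2 also called 0, against 0.0902% of 16623 genes by edgeR (0.0180% higher, 0.0722% lower) and 2.22% by DESeq2. At an unadjusted p under 0.05 there was 1 of the 10, against 10.4% of all genes. Cd40 was the gene without overlap, and it was higher. Of all genes, 8.92% were higher in this way and 8.15% lower. It had 1.98, 2.37 and 2.29 CPM in RNF138 fl/fl and 6.38, 3.01 and 2.94 in knockout-labelled tissue. The first knockout-labelled library was well above the others. The log2 difference was 0.89 (edgeR adjusted p = 0.468, SE 0.38), and 0.42 without that library. B cell markers were also highest in that library. They were 31.3 to 43.1 CPM in RNF138 fl/fl and 37.9 to 99.7 in knockout-labelled tissue. In replicate order, knockout-labelled B cell sums were 99.7, 37.9 and 89.5 CPM, beside Cd40 values of 6.38, 3.01 and 2.94. The library with a B cell sum of 89.5 CPM had the lowest Cd40 value of its group. T cell markers were 24.1 to 25.6 CPM in RNF138 fl/fl and 43.8 to 57.9 in knockout-labelled tissue. The part of B and T cell content in the Cd40 values was not tested.

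The same first knockout-labelled colitis library held the highest colitis value of Map3k14, Relb, Nfkb2, Ltbr and Traf2, and the lowest of Birc3 and Chuk. Relb had 67.3, 60.6 and 46.1 CPM in RNF138 fl/fl and 96.9, 57.6 and 66.8 in knockout-labelled tissue. Map3k14 had 13.6, 12.3 and 9.86 against 19.1, 15.1 and 10.9 CPM. Both groups overlapped, with log2 differences of 0.35 (SE 0.24) and 0.33 (SE 0.26) and edgeR adjusted p-values of 0.695 and 0.731. Birc3 had 49.8, 50.8 and 64.5 against 38.7, 40.8 and 53.6 CPM, a log2 difference of -0.31 (95% interval -0.70 to 0.08). Its direction was the opposite of that in the organoids. Differences for the remaining Nfkb2, Ltbr, Traf2, Traf3, Birc2 and Chuk were between -0.28 (Chuk) and 0.24 (Birc2), and all adjusted p-values were at least 0.787. The colitis median over the 10 genes was 0.15 and the CAC median -0.04, against 0.02 and 0.01 for all genes.

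**Figure D3:**
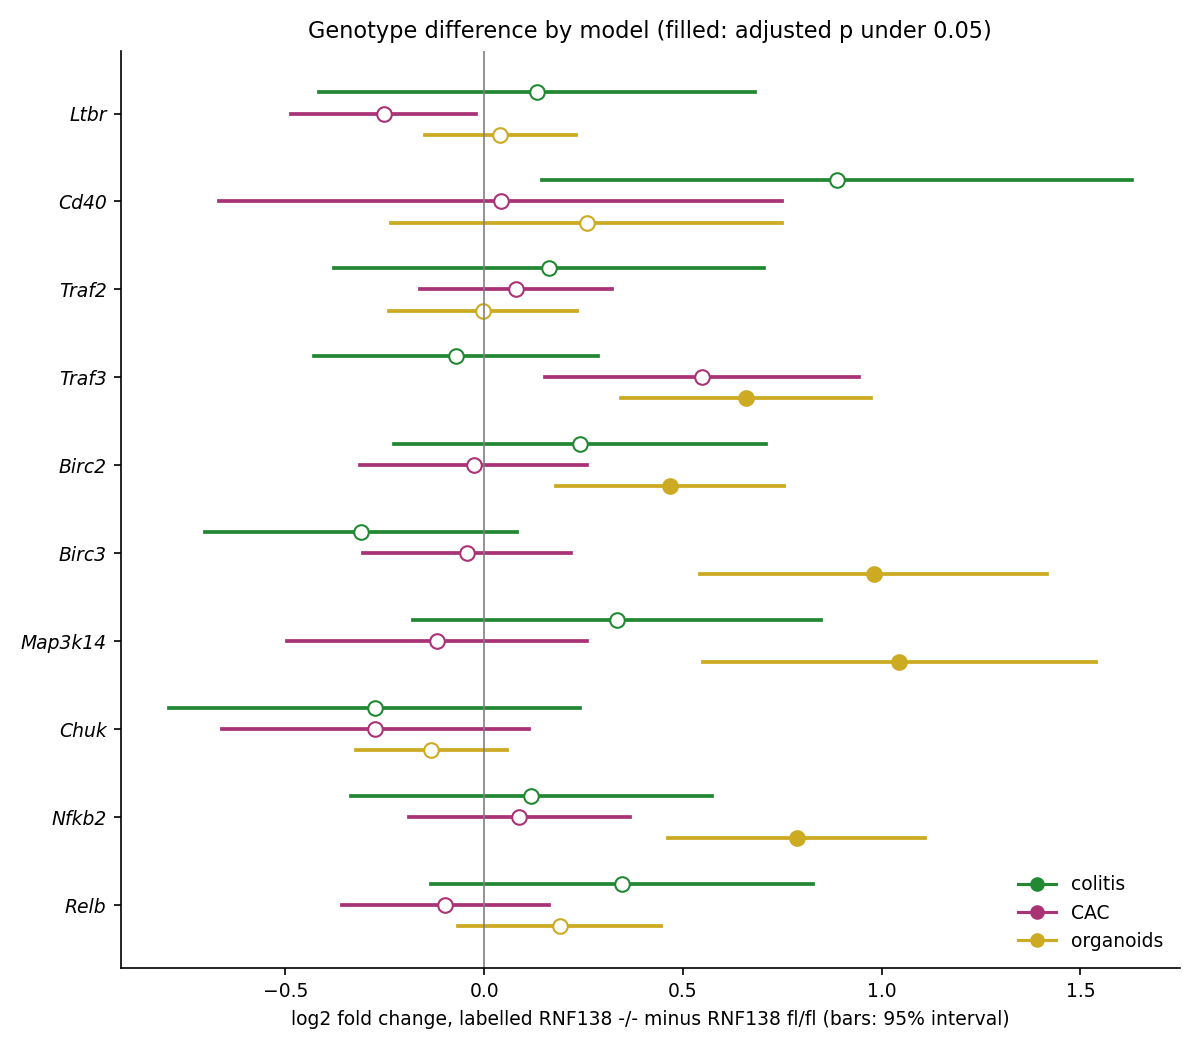
Log2 fold change (knockout-labelled minus RNF138 fl/fl) of the 10 genes in each model, with 95% intervals as bars and filled points for an adjusted p under 0.05. The 5 filled points are all of the organoids, from 0.47 (Birc2) to 1.04 (Map3k14), and no colitis or CAC point is filled.

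Whether the genotype difference itself changed between models was tested as an interaction in one fit of all 18 libraries, where the 3 contrasts share libraries with each other and with the comparisons within a model. Between organoids and CAC, 2 of the 10 genes were past the threshold, both with a larger difference in the organoids, against 23.3% of 19390 genes (13.1% in this direction, 10.2% in the other). At an unadjusted p under 0.05 there were 3, against 36.8% of all genes. Map3k14 differed by 1.15 (edgeR adjusted p = 0.0293, SE 0.36) and Birc3 by 1.01 (edgeR adjusted p = 0.0219, SE 0.29) on the log2 scale. Nfkb2 differed by 0.68 (edgeR adjusted p = 0.0893, SE 0.28) and did not pass. Between organoids and colitis, 1 of 10 was past the threshold against 7.11% of all genes (4.52% in this direction, 2.58% in the other), Birc3 by 1.33 (edgeR adjusted p = 0.0163, SE 0.29). At an unadjusted p under 0.05 there were 3, against 24.9% of all genes. Traf3 differed by 0.76 there (edgeR adjusted p = 0.0997, SE 0.27). Between CAC and colitis, 0 of 10 passed by edgeR and by DESeq2 against 14.1% of all genes by edgeR (4.21% larger in CAC, 9.88% smaller) and 18.7% by DESeq2. Traf3 alone had an unadjusted p under 0.05, which 30.1% of all genes had. Scaled by library totals, 0 of the 10 passed in any of these interactions, against 31.6% of all genes between organoids and CAC, 6.34% between organoids and colitis and 13.9% between CAC and colitis, and the median of all genes moved from -0.04 to -0.50 for organoids against CAC and from -0.04 to -0.25 for organoids against colitis. Without the second knockout-labelled organoid library 0 passed in either contrast with organoids, where 15.8% (against CAC) and 2.51% (against colitis) of all genes were called, and without the first RNF138 fl/fl organoid library 3 passed in each, against 23.6% and 9.59%. Between organoids and CAC, Map3k14 was also lost (edgeR adjusted p 0.0509 to 0.0734) without the third RNF138 fl/fl, the first knockout-labelled or the third knockout-labelled CAC library, or without the second RNF138 fl/fl, the third RNF138 fl/fl or the first knockout-labelled organoid library, which left Birc3. Without the second RNF138 fl/fl CAC library Traf3 passed between CAC and colitis (edgeR adjusted p = 0.0279), as did 17.2% of all genes.

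Levels were compared between genes as RPKM, the CPM per kilobase of merged exon, scaled over the 18 libraries. Ltbr had the highest level in all 6 groups, from 39.9 ± 1.48 RPKM (SD, n = 3) in knockout-labelled CAC to 63.8 ± 2.37 in knockout-labelled organoids. In RNF138 fl/fl colitis it was followed by Chuk (15.9 ± 3.99), Relb (14.8 ± 2.71), Nfkb2 (11.8 ± 2.21) and Birc3 (10.9 ± 1.68), whose neighbours overlapped. Birc2 (8.53 ± 1.57) overlapped with Birc3 and not with Traf2 (6.59 ± 1.00), which overlapped with Traf3 (6.01 ± 0.266). Map3k14 (1.81 ± 0.28) and Cd40 (0.647 ± 0.0635) had the lowest levels and did not overlap. RNF138 fl/fl CAC tissue had the same first and last genes, Ltbr at 45.8 ± 2.32 and Cd40 at 0.983 ± 0.423 RPKM.

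The organoids had another order. In the RNF138 fl/fl organoids Ltbr (60.4 ± 2.66 RPKM) was followed by Relb (25.4 ± 4.45) and Nfkb2 (20.5 ± 5.04), which overlapped, then by Chuk (13.6 ± 0.806) and by Birc2 (9.32 ± 1.05), Traf3 (8.53 ± 2.04), Birc3 (7.48 ± 2.22) and Traf2 (4.73 ± 0.442), of which neighbours overlapped. Map3k14 was last at 0.731 ± 0.248 RPKM, under Cd40 at 1.56 ± 0.419. In the knockout-labelled organoids Nfkb2 (36.3 ± 2.62) stood above Relb (29.7 ± 1.56) without overlap, and Birc3 (15.1 ± 2.52) came next, overlapping with Traf3 (13.8 ± 0.875). Over the 18 libraries the highest level divided by the lowest was greatest for Map3k14 (5.35) and smallest for Birc2 (2.07).

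**Figure D4:**
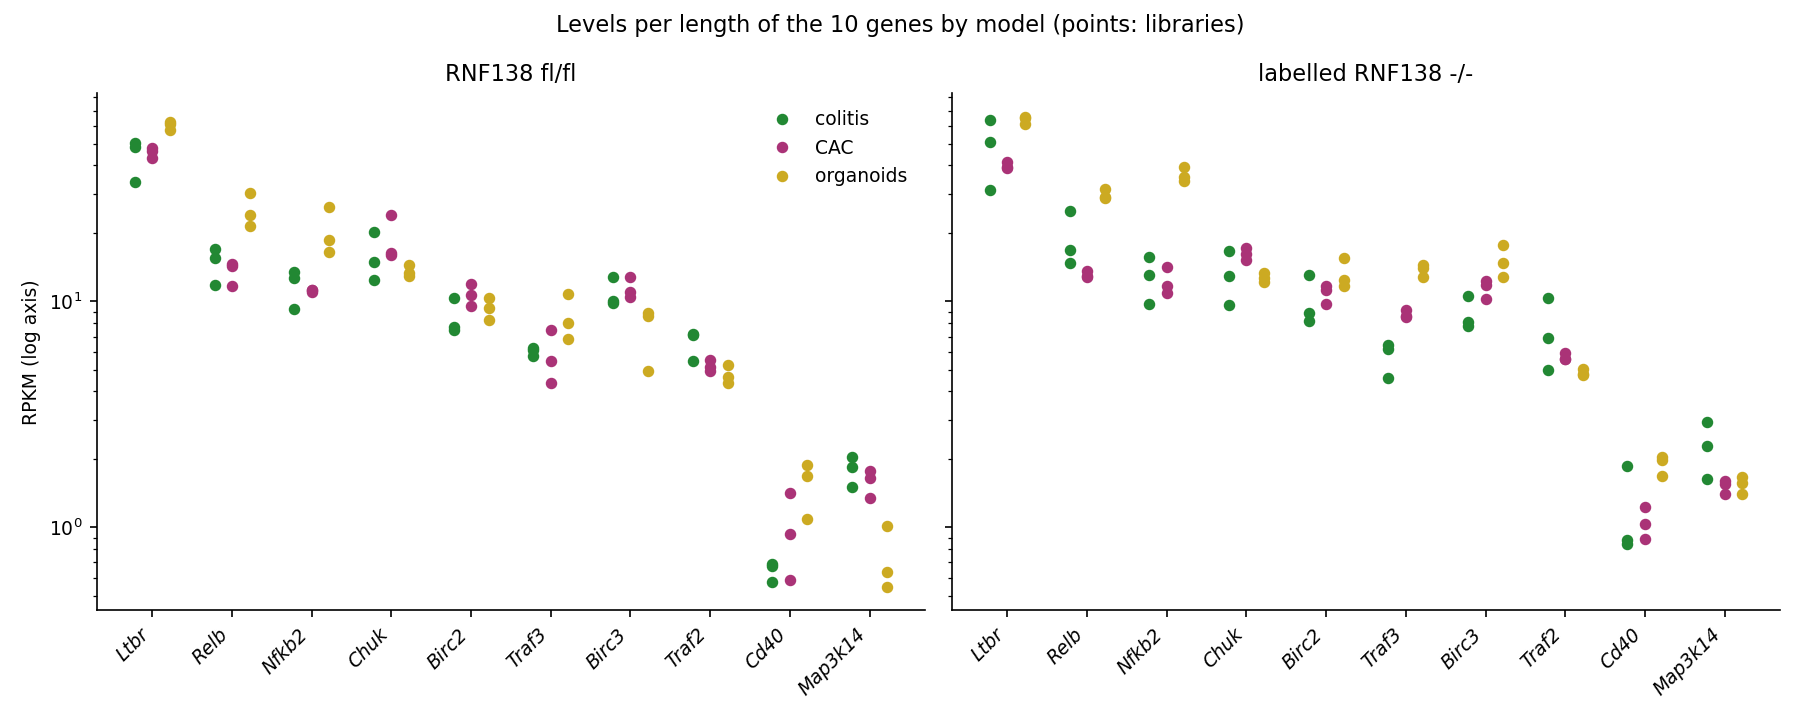
RPKM (log axis) of the 10 genes in RNF138 fl/fl (left) and knockout-labelled (right) libraries, 1 point per library, colored by model and ordered by the mean in RNF138 fl/fl organoids. Map3k14 in RNF138 fl/fl organoids lay between 0.546 and 1.01 RPKM, under all of its tissue values, and Nfkb2 and Relb of the organoids lay above most tissue values.

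Tested between models in the RNF138 fl/fl libraries, which are also the controls of the genotype comparisons, 0 of the 10 genes differed between CAC and colitis by edgeR or DESeq2 against 19.8% of all genes by edgeR (12.3% higher in CAC, 7.55% lower) and 19.7% by DESeq2. At an unadjusted p under 0.05 there were also 0, against 33.8% of all genes. Between organoids and CAC tissue 5 of 10 differed, against 60.7% of all genes (27.0% higher in organoids, 33.7% lower), and 6 had an unadjusted p under 0.05, against 64.7%. Relb (log2 difference 0.90, SE 0.19, edgeR adjusted p = 0.000821), Nfkb2 (0.88, SE 0.20, edgeR adjusted p = 0.00135) and Traf3 (0.56, SE 0.19, edgeR adjusted p = 0.0201) were higher in organoids. Map3k14 (-1.12, SE 0.26, edgeR adjusted p = 0.00142) and Birc3 (-0.61, SE 0.21, edgeR adjusted p = 0.019) were lower. Birc3 was lost without the first RNF138 fl/fl CAC library (adjusted p 0.0665) or the second RNF138 fl/fl organoid library (0.0985), and Traf3 without the first (0.0648) or the third (0.0983) RNF138 fl/fl CAC library, the first RNF138 fl/fl organoid library (0.138), with library totals (0.148) or without a filter on low counts (0.0523). Without the first RNF138 fl/fl CAC library Cd40 (adjusted p 0.0372) and Chuk (0.044) were past the threshold. Chuk also passed with library totals (0.0216) and, with a replicate block, so did Ltbr (0.0166) and Chuk (0.0329). The median of all genes in this contrast was -0.14. Tissue and culture hold different cells, and the part of cell content was not tested. The Y-linked genes summed to 0 CPM in these organoid libraries and to between 218.1 and 270.9 in the CAC ones. Sex and model therefore cannot be told apart in this contrast.

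Ratios of gene pairs within a library do not depend on library scaling. For 3 libraries against 3 the smallest exact permutation p is 0.1 (two-sided), and adjusted over the 12 ratios tested the lowest was 0.24, so none could pass 0.05. How often other gene pairs lack overlap was not computed. Of single genes, 25.8% were higher and 27.8% lower without overlap in the organoids. These shares were 21.4% and 22.8% in CAC and 8.92% and 8.15% in colitis. The ratio of Map3k14 to Traf3, kinase to its inhibitor, shifted by 0.42 on the log2 scale in the organoids (from -3.57 ± 0.27 to -3.15 ± 0.15), by 0.39 in colitis and by -0.69 in CAC (from -1.83 ± 0.38 to -2.52 ± 0.08), each without overlap (exact permutation p = 0.1). Birc3 to Birc2 shifted by -0.54 in colitis without overlap (exact permutation p = 0.1), by -0.02 in CAC and by 0.55 in the organoids, where the groups overlapped (exact permutation p = 0.2). The organoid shift was 0.20 without the second RNF138 fl/fl library, whose ratio was -1.07 against -0.07 and 0.06 in the other two. Nfkb2 to Nfkb1, the noncanonical against the canonical precursor gene, shifted by 0.36 in the organoids without overlap (exact permutation p = 0.1), and with overlap by 0.27 in colitis (exact permutation p = 0.4) and by -0.28 in CAC (exact permutation p = 0.3). Relb to Rela overlapped in each model, with a shift of 0.14 for organoids, 0.33 for colitis and -0.35 for CAC. The colitis shift of Relb to Rela was 0.0037 without the third and 0.64 without the second knockout-labelled library. Its CAC shift was -0.54 without the second and -0.23 without the third RNF138 fl/fl library, and its organoid shift was 0.092 and 0.22 without the same libraries of that model. The Nfkb2 to Nfkb1 shift was 0.073 in colitis without the first knockout-labelled, 0.47 without the third knockout-labelled and 0.12 without the third RNF138 fl/fl library. It was -0.43 in CAC without the first and -0.12 without the third knockout-labelled library, and 0.21 in the organoids without the first RNF138 fl/fl library. The Map3k14 to Traf3 shift was 0.25 in colitis without the first knockout-labelled library and 0.26 in the organoids without the third RNF138 fl/fl library.

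**Figure D5:**
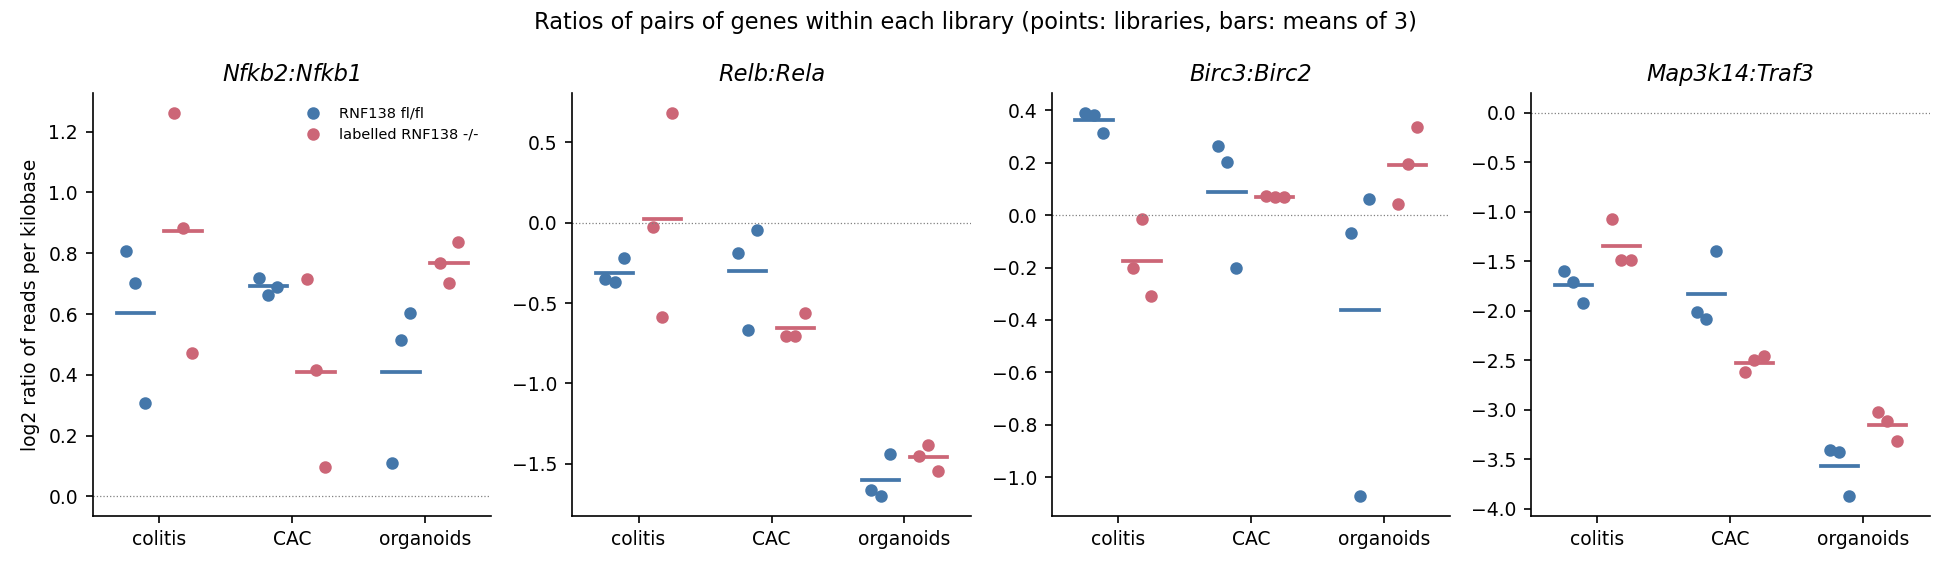
Log2 ratio of reads per kilobase of 4 gene pairs in each library (points, with the mean of 3 as a bar), by model and genotype. The Map3k14 to Traf3 ratio did not overlap between genotypes in any model, with the knockout-labelled values higher in colitis (by 0.39) and organoids (by 0.42) and lower in CAC (by 0.69). With groups this small, a lack of overlap gives an exact permutation p of 0.1.

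Other genes of the pathway were taken from 5 lists of 51 genes: ligands, other receptors, canonical partners, regulators and targets. In the organoids 41 were tested, of which 5 were higher and 5 lower (edgeR adjusted p under 0.05). The share of all genes called in the organoids was 35.5%, 17.9% higher and 17.7% lower, and the lists together held fewer calls for their size than that. Among receptors, 2 of 6 rose. Tnfrsf1b, the TNF receptor 2 gene, had 44.0, 30.3 and 31.4 CPM in RNF138 fl/fl and 79.0, 100.8 and 87.8 in knockout-labelled organoids, without overlap, at a log2 fold change of 1.34 (edgeR adjusted p = 0.00194, SE 0.17). Tnfrsf14, the HVEM gene, rose by 1.22 (edgeR adjusted p = 0.0379, SE 0.38). Of 9 canonical partners, the inhibitor gene Nfkbie (1.20, SE 0.27, edgeR adjusted p = 0.0114) and the subunit gene Rel (0.60, SE 0.19, edgeR adjusted p = 0.041) rose, and Nfkb1 and Rela were not past the threshold.

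Of 13 regulators in the organoids 1 rose and 3 fell, which is below the 35.5% called among all genes, as are the shares of ligands and targets given next. Ikbke, a kinase gene, rose (0.56, SE 0.15, edgeR adjusted p = 0.0202), and the related kinase gene Tbk1, whose protein phosphorylates NIK, fell (-0.44, SE 0.10, edgeR adjusted p = 0.0112). Fbxw7, a ubiquitin ligase subunit, fell (-0.39, SE 0.12, edgeR adjusted p = 0.0413), as did the deubiquitinase gene Usp15 (-0.35, SE 0.12, edgeR adjusted p = 0.0478), which was named after its values were seen. Of 6 ligands 1 fell, Ltb, the lymphotoxin-beta gene, from 1.06, 1.58 and 2.55 CPM to 0.544, 0.592 and 0.644 (log2 fold change -1.53, SE 0.41, edgeR adjusted p = 0.0229). Of 7 targets 1 fell, the survival gene Bcl2l1 (-0.85, SE 0.15, edgeR adjusted p = 0.00497). Tnfrsf1b, Nfkbie and Bcl2l1 stayed past the threshold without each library in turn, in 6 of 6 fits. Tbk1 did so in 4 of 6, Tnfrsf14 and Ikbke in 3 of 6, and Ltb, Rel, Fbxw7 and Usp15 in 1 of 6, which for Ltb, Rel and Usp15 was the fit without the first RNF138 fl/fl library and for Fbxw7 the fit without the second, and their adjusted p-values reached 0.0824 (Ltb), 0.119 (Rel), 0.162 (Fbxw7) and 0.167 (Usp15). The count of 10 list genes became 13 without the first RNF138 fl/fl library and 3, 5 and 3 without the first, the second and the third knockout-labelled library, beside the shares of all genes given above for those fits. Trappc9, the gene of NIBP, an NF-kB activator, was not past the threshold (0.12, SE 0.10, edgeR adjusted p = 0.386).

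In CAC, 47 list genes were tested and 2 fell, both receptors, no more for their number than the 6.38% of all genes called there (5.33% lower). Tnfrsf13c, the BAFF receptor gene of B cells, had 7.07, 3.87 and 4.71 CPM in RNF138 fl/fl and 0.420, 0.181 and 0.202 in knockout-labelled tissue, without overlap (log2 fold change -4.28, SE 0.46, edgeR adjusted p = 0.0193), and the B cell markers moved the same way. Tnfrsf11a, the RANK gene, had 72.1, 94.1 and 124.7 against 41.6, 39.9 and 47.1 CPM (-1.18, SE 0.22, edgeR adjusted p = 0.037). The summed epithelial markers were also lower without overlap in these libraries, at 8366 to 10560 CPM against 11800 to 23850, with 8 of 8 markers at a negative log2 difference (median -0.73) and 0 past the threshold. The part of epithelial content in the Tnfrsf11a values was not tested. Neither was past the threshold without any 1 of the knockout-labelled CAC libraries, where 0 list genes and 0 to 0.605% of all genes passed, and Tnfrsf11a was lost without the second RNF138 fl/fl library (0.0548). The count was 3 without the first RNF138 fl/fl library (1.56% of all genes) and 4 without the third (8.87%). In colitis 46 were tested and 0 passed by edgeR, with 10 at an unadjusted p under 0.05 against 10.4% of all genes, while DESeq2 called 2 against 2.22% of the genes to which it gave an adjusted p. There 4 of 6 ligands (Ltb, Tnfsf11, Tnfsf12 and Tnfsf8, named after their values were seen) were higher without overlap, against 8.92% of all genes, with edgeR adjusted p-values of 0.208 to 0.409. Beside them, 8 of 8 T cell markers (median log2 difference 0.981) and 8 of 8 B cell markers (median 1.845) were positive, with 0 past the threshold.

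Likeness of pattern was measured as the root mean square difference of log2 CPM, centred per gene, over the 18 libraries, against 19389 other genes, and is a description. The genes nearest to Map3k14 were Zdhhc1 (0.204), Atg16l2 (0.247) and Inppl1 (0.253), and the nearest of the other 9 members was Traf2 at rank 174 (0.411). Nearest to Nfkb2 were Nfe2l1 (0.138), Sh3gl1 (0.184) and Ptpn23 (0.185), with Relb at rank 135 (0.30). Nearest to Relb were Nop53 (0.141), Btd (0.165) and Egln1 (0.174), with Ltbr at rank 158 (0.292). Nearest to Birc3 were Gm43737 (0.184), Sp1 (0.198) and Arhgap42 (0.202), with Birc2 at rank 248 (0.333). Nearest to Cd40 were Pea15a (0.269), Ppm1m (0.299) and Tubg2 (0.303), with Relb at rank 68 (0.396). For none of these 5 genes was another member among the 3 nearest.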

How the data were processed

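RNA-seq of colorectal tissue (colitis, CAC) and CAC-derived organoids gave 18 libraries, grouped by the labels into 3 per model and genotype. The authors deposited raw counts, 1 whole number for each gene and library. The submitters' processing notes name mm10, STAR 2.6.1d, HTSeq 0.11.2 and DESeq2. In the study's methods, reads were mapped to mm10, and Cufflinks with Gencode v.M8 assembled them into transcripts. How the notes and the methods fit together was not given. A second table of the authors' log2 fold changes and p-values was not used. Identifiers were matched to GENCODE M21 (36700 genes, 99.84%), which gave the mm10 (GRCm38) coordinates and exon lengths.

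Each model was fitted with edgeR 4.0.16 in R 4.3.3 (TMM, filterByExpr by genotype, glmQLFit, glmQLFTest) and Benjamini-Hochberg adjustment. Interactions and model contrasts came from one fit of 18 libraries. DESeq2 1.42.0 was an alternative, as were RLE scaling, library totals, no filter, a replicate block, a covariate of Y-linked genes, one fit of all libraries and leaving out each library. Intervals are approximate (95%, 1.96 SE on each side) and are too narrow for so few libraries. Fits were checked on simulated data with changes larger than those of the members, which does not show how well smaller changes are found. Replicates of a group differed by 8.05 to 161 in chi-square per degree of freedom, so none was a copy of another.

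Replicate numbers were not used to pair samples. The members, lists and tests were chosen with earlier results of these data known. Named genes are the 10 members, Rnf138, Trappc9, up to 3 genes per pathway list and model with the largest absolute log2 fold change past the threshold, and the 3 nearest genes in pattern.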

Additional observations from a re-analysis of the deposited data

Results flagged for a closer look

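The genotype difference of Birc3 was larger in organoids than in CAC by 1.01 on the log2 scale and than in colitis by 1.33, by the interaction test across all 18 libraries. In the organoids all 3 knockout-labelled values of Birc3 lay above the others, while in colitis its mean was lower in the knockout-labelled group. The genotype difference of Map3k14 was larger in organoids than in CAC by 1.15 on the log2 scale by the same test. It passed in 5 of 12 fits that left out 1 library. For Rnf138, the targeted gene, the genotype difference was larger in CAC than in colitis by 0.83 on the log2 scale (edgeR adjusted p = 0.0449), and organoids minus CAC gave -0.83 (edgeR adjusted p = 0.0296). Of all genes, 14.1% and 23.3% were called in these contrasts. For Rnf138 they were not examined without single libraries. Groups of 3 libraries were too small to be tested for a single library that stands apart.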

How the results depend on the processing

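The organoid calls of Nfkb2 held under all alternatives run, and the 5 calls of members held under RLE scaling, no filter and DESeq2, which called 35.1%, 20% and 30.9% of all genes. In one fit of all 18 libraries Birc2 was lost in the organoids (adjusted p 0.0763). The number of members called stayed 0 in colitis and was 1 in CAC in that fit, which called 23.5% of all genes in CAC. The number of pathway list genes called in colitis, 0, became 1 without a filter, 2 with DESeq2 and 1 with the covariate of Y-linked genes, where 1.13%, 2.22% and 1.29% of all genes were called. In CAC it went from 2 of 47 to 4 without a filter, 10 with DESeq2, 0 with the covariate and 9 in one fit of all libraries, where 5.77%, 20.2%, 0.214% and 23.5% of all genes were called against 6.38%. In the organoids it went from 10 to 5 in one fit, where 16.8% of all genes were called against 35.5%. The covariate could not be used in the organoids, where it divides as genotype does. Of the organoids against CAC interaction, 2 calls became 0 with library totals (31.6% of all genes called) and 1 without a filter (10.6%), and of organoids against colitis 1 became 0 with library totals (6.34%). Where no value shows a cause, the cause was not tested.

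These directions changed. With library totals the CAC differences were 0.16 (Map3k14), 0.18 (Relb), 0.020 (Ltbr), 0.26 (Birc2), 0.22 (Birc3) and 0.025 (Chuk), and the organoid ones -0.0086 (Relb), -0.16 (Ltbr) and -0.081 (Trappc9). In the interactions, totals gave 0.23 (Traf2) and 0.032 (Birc2) for CAC minus colitis, -0.19 (Relb), -0.18 (Ltbr), -0.33 (Traf3), -0.000525 (Birc2), -0.20 (Cd40) and -0.37 (Chuk) for organoids minus CAC, and -0.055 (Chuk) for organoids minus colitis, while Traf3 in RNF138 fl/fl CAC minus colitis was 0.035. Without a filter CAC Birc2 was 0.020 and organoid Traf2 0.017. Organoid Traf2 was 0.021 with RLE, 0.037 with DESeq2 and 0.035 in one fit of all libraries, and Nfkb2 in CAC minus colitis was -0.036 with RLE and -0.035 with DESeq2. CAC Birc2 and Birc3 were 0.029 and 0.0084 in one fit.

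Whether the replicate numbers pair the samples was not settled. Deviations of same-numbered libraries correlated at 0.0875 to 0.467 in colitis, 0.0421 to 0.204 in CAC and -0.193 to 0.063 in the organoids. Those of different-numbered libraries correlated at -0.364 to 0.241 in colitis, -0.141 to 0.0446 in CAC and -0.147 to 0.211 in the organoids. Not every library correlated best with its own number. With a replicate block the organoids still had 5 members called, Map3k14 at 1.09, Nfkb2 at 0.81, Traf3 at 0.68, Birc2 at 0.46 and Birc3 at 1.00. Traf2 turned to 0.000704 in the organoids and 0.016 in CAC minus colitis under the block, and Nfkb2 in organoids minus CAC was past the threshold (0.71, adjusted p 0.0455). Rnf138 in CAC was lost (adjusted p 0.0624), as were Tnfrsf14, Ikbke, Fbxw7 and Usp15 in the organoids, members called in RNF138 fl/fl organoids against CAC went from 5 to 7 against 62.2% of all genes, and list genes called were 3 in CAC (6.87% of all genes) and 7 in the organoids (26.4%).

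Leaving out 1 library gave 0 to 1 members called in CAC minus colitis, 0 to 3 in organoids minus CAC, 0 to 3 in organoids minus colitis and 1 to 6 in the organoids, and 0 to 4 list genes in CAC and 3 to 13 in the organoids. Signs changed in colitis for Birc2 (-0.00466 to 0.40), Ltbr (-0.099 to 0.37), Nfkb2 (-0.047 to 0.28), Traf2 (-0.15 to 0.38), Traf3 (-0.17 to 0.058), Rnf138 (-0.20 to 0.16) and Trappc9 (-0.36 to 0.0036). In CAC they changed for Birc2 (-0.096 to 0.087), Birc3 (-0.080 to 0.034), Cd40 (-0.19 to 0.39), Nfkb2 (-0.033 to 0.19) and the Birc3 to Birc2 ratio (-0.16 to 0.068), and in the organoids for Traf2 (-0.049 to 0.088) and Rnf138 (-0.24 to 0.0030). In CAC minus colitis they changed for Chuk (-0.21 to 0.27), Nfkb2 (-0.18 to 0.19) and Traf2 (-0.29 to 0.28). In organoids minus CAC they changed for Cd40 (-0.13 to 0.47), Chuk (-0.087 to 0.25) and Traf3 (-0.12 to 0.31), and in organoids minus colitis for Chuk (-0.069 to 0.39), Ltbr (-0.31 to 0.19), Relb (-0.30 to 0.14) and Traf2 (-0.36 to 0.19). In RNF138 fl/fl CAC minus colitis they changed for Birc3 (-0.054 to 0.18), Ltbr (-0.12 to 0.13) and Traf3 (-0.32 to 0.11). Map3k14 in the organoids rested on 52 to 207 reads per library and Cd40 in all libraries on 21 to 128, which limits both.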
